A study of Homo sapiens with 5 samples.

Results

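The 5 spliceosomal small nuclear RNA (snRNA) genes RNU4-2, RNU12, RNU6ATAC, RNVU1-7 and RNVU1-6 are described across 5 libraries of total RNA from MDA-MB-231, an established line of triple-negative breast cancer cells. They were chosen by their gene symbols from the 4202 genes of the deposited table, and all 5 were found. The choice was made with earlier results of these data in view, so the ratios below, to mock or between treatments, are descriptions and support nothing by themselves. The cells were treated for 4 h under 1 of 5 conditions, with no dose given in the sources used here: mock; CGI-1746, which the labels name as a BTK inhibitor; LU-102, which they name as the submitters' inhibitor; CGI-1746 and LU-102 together (the combination); and bortezomib, a drug that inhibits the proteasome and served as the control for its inhibition. Each condition has 1 library. No value has a replicate error, no difference was tested, and the intervals given cover the counting of reads only.

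Introns are removed by the spliceosome, whose core is a set of small nuclear RNAs bound to proteins. In the major spliceosome U1 pairs with the 5′ splice site, and U4 pairs with U6 and holds it inactive until the complex is assembled. A minor spliceosome removes a small class of introns: there U12 pairs with the branch site, and U6atac takes the place of U6 at the 5′ splice site and in the catalytic centre. U1, U4 and U12 are made by RNA polymerase II, are cut at the 3′ end by the Integrator complex and carry a ring of Sm proteins. U6atac is made by RNA polymerase III, ends in a run of T in its gene and carries LSm proteins. RNVU1-7 and RNVU1-6 are variant U1 genes outside the main U1 cluster.

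The RNAs are short, and they differ in the few bases that pair with an intron, so their gene sequences are shown with those bases and the Sm site in capitals. The sequences come from GENCODE 29 on GRCh38 and are written as DNA of the RNA strand. Capitals mark ATACTTACCTG, which pairs with 5′ splice sites, and AATTTNTG, the Sm site, in the U1 variants.
RNVU1-7: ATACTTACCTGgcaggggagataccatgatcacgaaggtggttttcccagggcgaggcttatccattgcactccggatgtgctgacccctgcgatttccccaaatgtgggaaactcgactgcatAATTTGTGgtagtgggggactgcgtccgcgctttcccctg
RNVU1-6: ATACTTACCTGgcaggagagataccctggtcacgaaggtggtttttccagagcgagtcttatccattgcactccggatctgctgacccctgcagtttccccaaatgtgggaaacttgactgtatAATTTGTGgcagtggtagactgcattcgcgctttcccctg
RNU1-1 is a main U1 gene, shown because RNVU1-7 differs from it at a single base.
RNU1-1: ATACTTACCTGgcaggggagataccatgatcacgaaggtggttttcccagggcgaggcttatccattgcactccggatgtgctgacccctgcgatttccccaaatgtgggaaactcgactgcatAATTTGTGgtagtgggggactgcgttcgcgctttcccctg
In the U4 genes capitals mark the Sm site alone. RNU4-1 is the neighbouring U4 gene, shown for its likeness to RNU4-2.
RNU4-2: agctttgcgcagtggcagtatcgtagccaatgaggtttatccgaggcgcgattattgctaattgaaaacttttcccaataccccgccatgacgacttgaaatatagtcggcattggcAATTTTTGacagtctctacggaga
RNU4-1: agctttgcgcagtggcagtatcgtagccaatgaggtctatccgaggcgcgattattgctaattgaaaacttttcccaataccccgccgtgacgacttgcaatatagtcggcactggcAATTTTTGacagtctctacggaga
In RNU12 capitals mark GTAAGGAA, which pairs with the branch site of minor introns, and the Sm site. In RNU6ATAC they mark AAGGAGAGA, which faces the 5′ splice site of minor introns.
RNU12: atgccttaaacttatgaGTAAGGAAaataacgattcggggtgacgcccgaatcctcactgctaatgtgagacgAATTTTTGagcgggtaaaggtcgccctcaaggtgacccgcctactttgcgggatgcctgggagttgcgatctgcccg
RNU6ATAC: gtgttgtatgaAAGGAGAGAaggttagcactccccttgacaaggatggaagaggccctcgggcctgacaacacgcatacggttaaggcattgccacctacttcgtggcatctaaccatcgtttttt

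None of the 4 motifs searched was found in all 5 genes: the Sm site was found in 4 of them and not in RNU6ATAC, whose sequence ends in T. ATACTTACCTG, GTAAGGAA and AAGGAGAGA were taken by position from RNU1-1, RNU12 and RNU6ATAC, so their presence in those genes was fixed in advance. No wider search for a shared motif was made. Among 1900 snRNA transcripts of GENCODE, ATACTTACCTG was found in 1.89%, AATTTNTG in 22.3%, GTAAGGAA in 0.158% and AAGGAGAGA in 1%. On the opposite strand AATTTNTG was found in 13% of the same transcripts and AAGGAGAGA in 0.0526%, while the other 2 were found in none. No motif overlapped another in the 5 genes, and none was found on their opposite strand.

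RNVU1-7 (chromosome 1, 148038753 to 148038916) and RNVU1-6 (chromosome 1, 146052081 to 146052244) are both 164 bases long and lie on the minus strand. Counted from the 5′ end, RNVU1-7 differs from RNU1-1 by T150C alone. RNVU1-6 differs from RNU1-1 at 15 bases (90.9% identity), among them G17A, A26C and A29G, but not in the bases that pair with the 5′ splice site. GENCODE holds 7 other transcripts identical to RNU1-1. RNU1-1 and the other main U1 genes searched by symbol were not among the 4202 listed genes. With a single differing base, reads of main U1 RNA and of RNVU1-7 are hard to keep apart, so the RNVU1-7 values are uncertain in their source. RNU4-2 (chromosome 12, 120291763 to 120291903) has 141 bases in GENCODE and 145 in RefSeq, starts 1194 bases from the end of RNU4-1, and differs from it at 4 bases, C37T, G88A, C99A and C113T.

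RNU12 (chromosome 22, 42615244 to 42615393, plus strand) lies within the span of a long noncoding RNA gene, Z93241.1 (42615244 to 42615907), with the same start and strand. Reads of U12 and of a longer transcript that covers it from the same start cannot be told apart within the 150 bases of RNU12. POLDIP3, a protein-coding gene on the other strand, has its start 282 bases from that of RNU12, head to head with it, and had a level of 1.68 in mock and 0.695 with bortezomib. RNU6ATAC (chromosome 9, 134164439 to 134164564, minus strand, 126 bases) has no gene over it, the nearest lying 4205 bases away.

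How the deposited levels were normalized is not stated; for low short genes, level times gene length was a near-whole multiple of 1 value per library, and levels are read here as reads per length on that ground. RNVU1-7, the U1 variant, stood at a level of 250.2 in mock, at 367 and 357 under the single agents CGI-1746 and LU-102, at 321 under both, and at 1398 under bortezomib. These rest on 691, 1022, 1001, 894 and 4264 reads, not all of them whole on the recovered scale, and how reads that fit several genes were counted is not stated. Mock was the lowest library, and bortezomib stood far above the others. RNVU1-6, the other U1 variant, stood at a level of 5.07 in mock, at 6.82 and 8.21 under CGI-1746 and LU-102 alone, at 8.25 under both and at 4.92 under bortezomib, on 14, 19, 23, 23 and 15 reads. Its highest level was in the combination and its lowest with bortezomib, and all 5 counting intervals overlap.

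RNU4-2, the U4 gene, stood at a level of 122 in mock, at 142 and 129 under CGI-1746 and LU-102 alone, at 131 under both and at 2273 under bortezomib, from 297.5, 349, 319.8, 323 and 6129 reads. The first 4 libraries lie close together, and the bortezomib library is apart from them.

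RNU12, the branch site RNA of minor introns, stood at a level of 1.59 in mock, at 3.95 and 1.57 under CGI-1746 and LU-102 alone, at 1.58 under both and at 93.8 under bortezomib. Only 4, 10, 4 and 4 reads stand behind the first 4 levels, against 260 with bortezomib. RNU6ATAC, the other minor spliceosome RNA, was near the detection limit throughout, at levels of 1.90, 0.471, 1.41, 2.35 and 1.29 in the same order of libraries. These are 4, 1, 3, 5 and 3 reads, and no library stands out from the others.

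**Figure D1:**
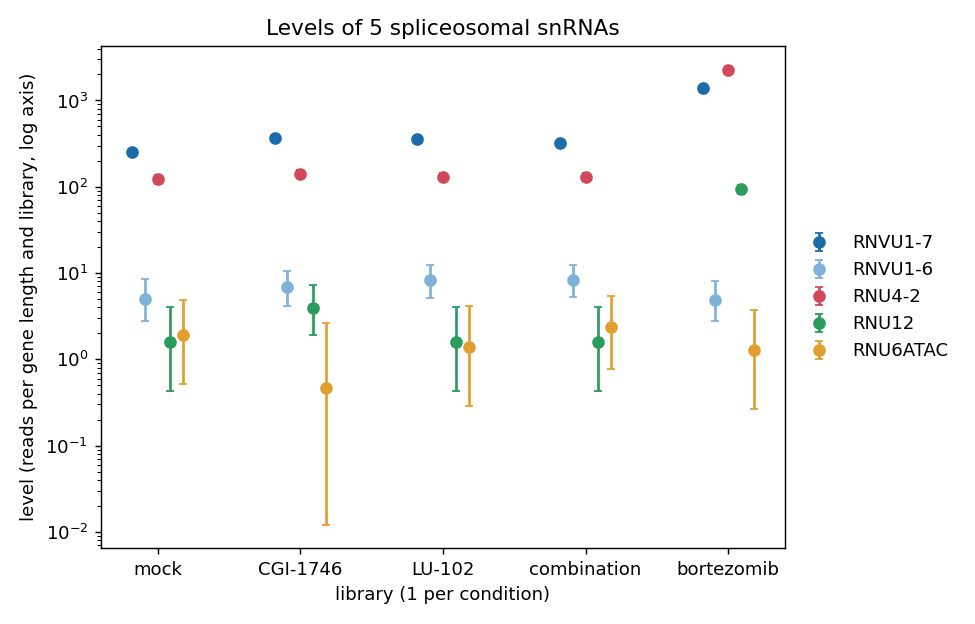
Level of each snRNA gene (log axis) in the 5 libraries, 1 per condition, with bars for the 95% interval of its read count (exact Poisson). RNVU1-7, RNU4-2 and RNU12 stand highest with bortezomib at 1398, 2273 and 93.8, while RNVU1-6 and RNU6ATAC stay between 4.92 and 8.25 and between 0.471 and 2.35.

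The order of the levels was RNVU1-7, RNU4-2 and RNVU1-6 in mock and in the 3 libraries without bortezomib, followed by RNU12 and RNU6ATAC, of which RNU6ATAC was higher in mock and the combination. The interval of RNVU1-6 overlaps that of the next lower gene in all of these libraries but LU-102. The ratio of the RNU12 level to the RNU6ATAC level had an interval that holds 1 in mock, LU-102 and the combination, and in CGI-1746 it was 8.39 (1.19 to 364), on 10 reads against 1. With bortezomib RNU4-2 passed RNVU1-7, and RNU12 passed RNVU1-6, in both cases with intervals that do not overlap. The level of RNU4-2 over that of RNVU1-7 was 0.487 in mock (95% interval 0.424 to 0.559) and 1.63 with bortezomib (1.56 to 1.69). In mock RNU4-2 stood at place 56 and RNVU1-7 at place 31 of the 4202 genes by level, and with bortezomib at places 7 and 9. RNU12 went from place 3520 to place 37. Places also rose for genes whose levels did not: RNVU1-6 went from place 1314 to 513 and RNU6ATAC from 3068 to 1783. With bortezomib 2231 genes had a level of at least 1, against 4161 in mock, so a higher place alone does not show a higher level.

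Bortezomib against mock sets the control for proteasome inhibition beside mock, and the intervals of 3 of the 5 genes lay above 1. RNU12 was 58.9-fold higher (interval 22.7 to 218), RNU4-2 18.7-fold (16.6 to 21.0) and RNVU1-7 5.59-fold (5.15 to 6.06), all as ratios of levels. RNVU1-6 had a ratio of 0.970 (0.437 to 2.17) and RNU6ATAC one of 0.679 (0.0995 to 4.01), and both intervals hold 1. Neither interval leaves out a 2-fold rise or a 2-fold fall, so these genes are not shown to differ from the others in direction. A bulk library cannot tell a change in every cell from one in some of the cells.

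On the scale of log2(level + 1), which shrinks low genes, the values were 5.19 for RNU12, 4.21 for RNU4-2, 2.48 for RNVU1-7, -0.04 for RNVU1-6 and -0.34 for RNU6ATAC. So 3 of the 5 genes were 2-fold or more higher, where 1.38% of the 4189 genes compared were, and none was 2-fold or more lower, where 48.1% were. The 5 genes were chosen with this comparison known, so nothing is read from these counts. The higher levels were not particular to snRNAs. Of 34 small nucleolar RNAs compared, 21 were 2-fold or more higher and 2 lower, with a median of 1.79. Among 13 small Cajal body RNAs 4 were higher and 4 lower, with a median of 0.24. RNU12 was the third from the highest of those 4189 genes, RNU4-2 the ninth, and RNVU1-7 stood at place 23. With a pseudocount of 5 RNU12 had 3.91 and the ninth place and RNU4-2 4.17 and the fifth, so the order of these 2 genes depends on the pseudocount.

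The median of all genes was -0.98 on that scale, so RNVU1-6 and RNU6ATAC, with values below 0, lay 0.94 and 0.64 above it. With median-of-ratios scaling, which sets the libraries equal over 445 genes well expressed in every one, the all-gene median became -0.44 and the sign of both turned, to 0.79 for RNVU1-6 and 0.27 for RNU6ATAC. The same scaling gave 6.08 for RNU12, 5.18 for RNU4-2 and 3.44 for RNVU1-7, and left 4.97% of genes 2-fold or more higher and 17.4% lower. Division by the summed levels gave 4.83, 3.76 and 2.03, with 1.05% of genes higher and 66.3% lower. Every one of these scalings thus kept the 3 genes past 2-fold. The bortezomib library also differed as a whole: 2231 genes had a level of at least 1 there, against 4161 to 4177 in the others. RN7SK, an RNA polymerase III product that is not part of the spliceosome, was 1.53-fold higher (1.51 to 1.55). RMRP, another product of that polymerase, had a ratio of 0.0723. RN7SL1, RN7SL2 and RPPH1, also short RNAs outside the spliceosome, had ratios of 1.89, 2.20 and 0.187. The part of these shifts in the snRNA ratios was not tested.

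**Figure D2:**
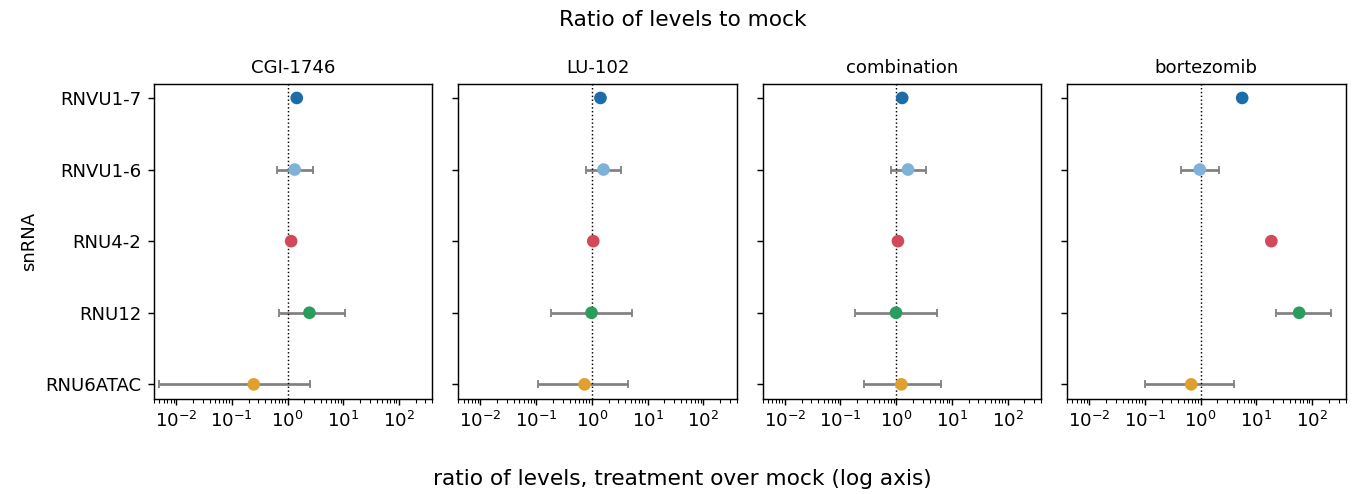
Ratio of the level of each snRNA gene in each treated library to its level in mock (log axis), with exact Clopper-Pearson intervals at 95% for counting error. With bortezomib RNVU1-7, RNU4-2 and RNU12 lie at 5.59, 18.7 and 58.9, and the intervals of RNVU1-6 and RNU6ATAC hold 1 in all 4 panels.

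**Figure D3:**
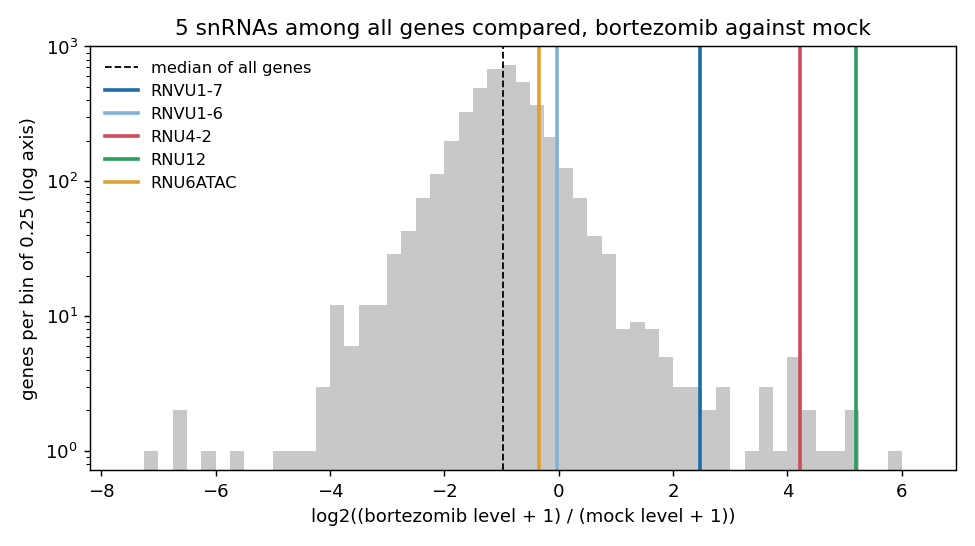
Number of genes (log axis) by log2 ratio of bortezomib to mock with a pseudocount of 1, for the 4189 genes compared, with the all-gene median (-0.98, dashed) and the 5 snRNA genes as lines. RNU12, RNU4-2 and RNVU1-7 lie at the far right, and RNVU1-6 and RNU6ATAC to the right of the median, below 0.

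Near copies of the genes are set beside them here, but where reads fit both copies their values are not an independent reading. RNU4-1, the neighbouring U4 gene, stood at a level of 98.4 in mock, at 107 and 113 under CGI-1746 and LU-102 alone, at 101 under both and at 1661 under bortezomib. Its ratio of bortezomib to mock was 16.9 (14.8 to 19.3), beside 18.7 for RNU4-2. RNU4-2 made up 55.3% of the reads of both U4 genes in mock (exact 95% interval 51.0 to 59.6), 57.0% and 53.2% under CGI-1746 and LU-102 alone, 56.5% under both and 57.8% under bortezomib (56.8 to 58.7). The share thus varied by a few percentage points while the summed reads went from 538 to 10607. The recovered reads of both genes were mostly not whole, how reads that fit both were counted is not stated, and the part of this in their likeness was not tested.

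RNVU1-14, another U1 variant, had 3 reads in mock and 5 with bortezomib, a ratio of levels of 1.51 (0.294 to 9.72), and 2 to 5 reads in the other libraries. It carries the same ATACTTACCTG at its 5′ end. Of the reads of the 3 U1 variant genes RNVU1-6 held 1.98% in mock (1.09 to 3.30), 1.82% and 2.23% under CGI-1746 and LU-102 alone, 2.50% under both (1.59 to 3.73) and 0.350% under bortezomib (0.196 to 0.577). Its own reads were 14 in mock and 15 with bortezomib, so the lower share comes from the reads of RNVU1-7, whose source is uncertain. The level of RNVU1-7 was 49.4 times that of RNVU1-6 in mock (29.2 to 90.8) and 284 times with bortezomib (172 to 508). For the 2 minor spliceosome RNAs the level of RNU12 over that of RNU6ATAC was 0.839 in mock (0.156 to 4.50), 8.39 with CGI-1746 (1.19 to 364) and 72.7 with bortezomib (24.6 to 355).

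**Figure D4:**
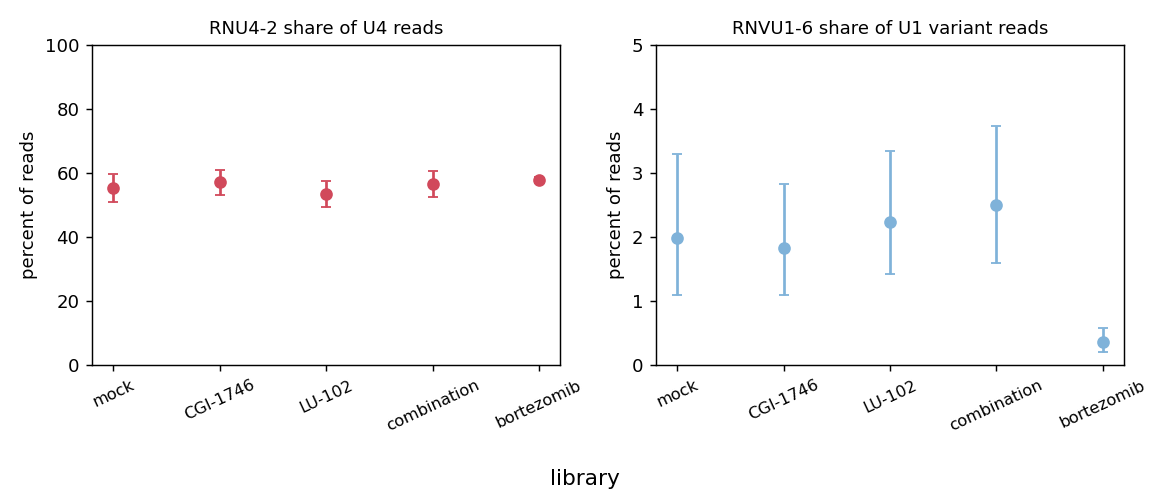
Percent of the reads of RNU4-2 and RNU4-1 that belong to RNU4-2 (left) and percent of the reads of RNVU1-7, RNVU1-6 and RNVU1-14 that belong to RNVU1-6 (right), by library, with exact 95% binomial intervals. The left share stays between 53.2% and 57.8%, and the right share is 0.350% with bortezomib and 1.82% or more elsewhere.

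CGI-1746 against mock concerns the BTK inhibitor alone. RNVU1-7 was 1.47-fold higher (interval 1.33 to 1.62), the only 1 of the 5 genes whose interval leaves out 1. RNU4-2 had a ratio of 1.16 (0.993 to 1.36), RNVU1-6 1.34 (0.639 to 2.90), RNU12 2.48 (0.714 to 10.8) and RNU6ATAC 0.248 (0.00503 to 2.50). None of the 5 was past 2-fold with the pseudocount of 1, where 0.167% of 4186 genes were. With a pseudocount of 0.1 RNU12 went past it upwards and RNU6ATAC downwards, on 10 against 4 reads and 1 against 4.

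LU-102 against mock gave a value like that of CGI-1746 for RNVU1-7, on the levels as deposited. RNVU1-7 was 1.43-fold higher (1.30 to 1.58), RNVU1-6 had a ratio of 1.62 (0.799 to 3.40), RNU4-2 1.06 (0.902 to 1.25), RNU12 0.986 (0.184 to 5.29) and RNU6ATAC 0.739 (0.108 to 4.37). Again none was past 2-fold, where 0.0715% of 4193 genes were. The RNVU1-7 value depends on the scaling: its log2 ratio of 0.51 became 0.17 after division by the summed levels, which were higher in the LU-102 library. RNU4-2 turned sign there, from 0.08 to -0.26. The same division took CGI-1746 against LU-102 to 0.36 for RNVU1-7 and 0.45 for RNU4-2.

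In the combination against mock RNVU1-7 had a ratio of 1.28 (1.16 to 1.42), RNVU1-6 1.63 (0.803 to 3.42), RNU4-2 1.07 (0.915 to 1.26), RNU12 0.991 (0.185 to 5.32) and RNU6ATAC 1.24 (0.267 to 6.24). No gene of the 5 was past 2-fold, where 0.215% of 4189 genes were. Division by the summed levels took the log2 ratio of RNVU1-7 from 0.36 to 0.03, and median-of-ratios scaling took it to 0.25. How far RNVU1-7 stood above mock in that library thus depends on the scaling. The division also turned the log2 ratio of RNU4-2 from 0.10 to -0.22. These 3 comparisons and the bortezomib one share the mock library, so a low count in mock would raise all 4 ratios together.

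The combination was also set against each single agent. Against CGI-1746, RNVU1-7 had a ratio of 0.875 (0.799 to 0.958), RNU4-2 0.925 (0.792 to 1.08), RNVU1-6 1.21 (0.631 to 2.35) and RNU12 0.400 (0.0916 to 1.39). RNU6ATAC was the 1 gene of the 5 past 2-fold, higher, where 0.0715% of 4193 genes were, on 5 reads against 1. Its ratio of 5.0 has an interval of 0.560 to 237, and with a pseudocount of 5 it was under 2-fold. Against LU-102 the ratio of RNVU1-7 was 0.897 (0.819 to 0.983) and that of RNU4-2 1.01 (0.866 to 1.19), and none of the 5 was past 2-fold, where 0.143% of genes were. CGI-1746 against LU-102 gave 1.03 for RNVU1-7 (0.939 to 1.12) and 1.10 for RNU4-2 (0.940 to 1.28), and no gene of the 5 past 2-fold against 0.0954% of all genes.

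Additivity on the log2 scale would make the ratio of the combination to mock the sum of the 2 single-agent ratios; the observed ratio departed from that sum by -0.71 for RNVU1-7, -0.20 for RNU4-2, -0.36 for RNVU1-6, -0.93 for RNU12 and 1.46 for RNU6ATAC, where the median of 4197 genes was 0.10. Those of RNU12 and RNU6ATAC rest on 10 reads or fewer in each library. For RNVU1-7 the log2 ratios to mock were 0.55 and 0.51 with CGI-1746 and LU-102 and 0.36 in the combination; after division by the summed levels they were 0.53, 0.17 and 0.03.

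Set against the control for proteasome inhibition, the libraries with LU-102 were unlike bortezomib in 3 of the 5 genes. These comparisons use the same bortezomib library as the one against mock, and the 5 genes were chosen with its values known. Nothing is therefore read from the counts below. LU-102 against bortezomib gave a ratio of 0.0168 for RNU12 (0.00453 to 0.0434), 0.0568 for RNU4-2 (0.0506 to 0.0636) and 0.256 for RNVU1-7 (0.238 to 0.274). These 3 were 2-fold or more lower, where 1.36% of 4192 genes were. RNU12 was the lowest of all 4192 on the log2(level + 1) scale, but with a pseudocount of 5 it had -3.91 and RNU4-2 was lower, at -4.09. The combination against bortezomib gave 0.0168 for RNU12, 0.0576 for RNU4-2 and 0.229 for RNVU1-7, again 3 genes lower where 1.26% of 4198 genes were. RNVU1-6 had ratios of 1.67 (0.834 to 3.44) and 1.68 (0.839 to 3.46) in these comparisons, and RNU6ATAC 1.09 (0.146 to 8.13) and 1.82 (0.355 to 11.7). With median-of-ratios scaling all 4 turned sign on the log2 scale, to -0.17 and -0.29 for RNVU1-6 and -0.51 and -0.14 for RNU6ATAC.

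The proteins that work with these RNAs were described from 6 lists of pathway genes, with 58 of 128 genes measured. With bortezomib 31 of the 58 were 2-fold or more lower and none higher, where 48.1% of all genes were lower and 1.38% higher, a share near that background, and their median log2 ratio was -1.06, beside -0.98 for all genes. None was past 2-fold with CGI-1746, LU-102 or the combination, where the medians were 0.01, -0.05 and 0.05 beside -0.02, -0.06 and 0.03 for all genes. The number past 2-fold depends on the scaling: 16 lower and 1 higher with median-of-ratios scaling, where 17.4% of all genes were lower and 4.97% higher, and 42 lower and none higher after division by the summed levels, where 66.3% were lower and 1.05% higher. These scalings gave medians of -0.55 and -1.31 beside -0.44 and -1.24 for all genes.

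Of the Sm and LSm proteins, which form the rings on snRNAs, 8 were measured and 3 were 2-fold or more lower with bortezomib, beside 48.1% of all genes. With median-of-ratios scaling 2 of the 8 were lower, beside 17.4% of all genes, so nothing is read from this count. Each list count that follows is also to be read against the 48.1%. SNRPD2, an Sm protein, had a level of 13.5 in mock and 2.07 with bortezomib, and LSM2 2.53 and 0.315. Of the U1 and U2 proteins 10 of 15 were lower, among them SF3B4 and SF3B5, which are parts of the U2 factor SF3b that the minor spliceosome also uses, at 9.48 against 0.839 and 25 against 6.23. Of the proteins of the U4/U6.U5 complex 7 of 13 were lower, near the share of all genes. PRPF8, the largest protein of the catalytic core, had 15.8 against 2.13, and SNU13, which binds U4, 4.21 against 0.641.

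Of the proteins particular to the minor spliceosome 3 were measured, and 1 was lower, SNRNP25, at 2.87 against 0.238. In the list of snRNA transcription and 3′ end processing 2 of 8 were lower, beside 48.1% of all genes: EAF1, a partner of the elongation factor ELL, at 3.24 against 0.526, and TOE1, which trims snRNA 3′ ends, at 3.50 against 0.749. Integrator subunits INTS1 and INTS5, chosen after their values were seen, stood at log2 ratios of -0.20 and -0.21. With median-of-ratios scaling their sign turned, to 0.35 and 0.49. INTS11, another Integrator subunit measured, stood at -0.90, near the all-gene median of -0.98. In the list of snRNP assembly and transport 8 of 11 were lower. PRMT5, which methylates Sm proteins before assembly, had 14.1 against 1.99, and KPNB1, an import receptor, 14.9 against 2.29. PHAX, which carries new snRNA out of the nucleus, was the highest of the 58 genes at 2.47 against 1.0, a log2 ratio of 0.79 that median-of-ratios scaling raised to 1.48, and was likewise chosen after its value was seen.

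**Figure D5:**
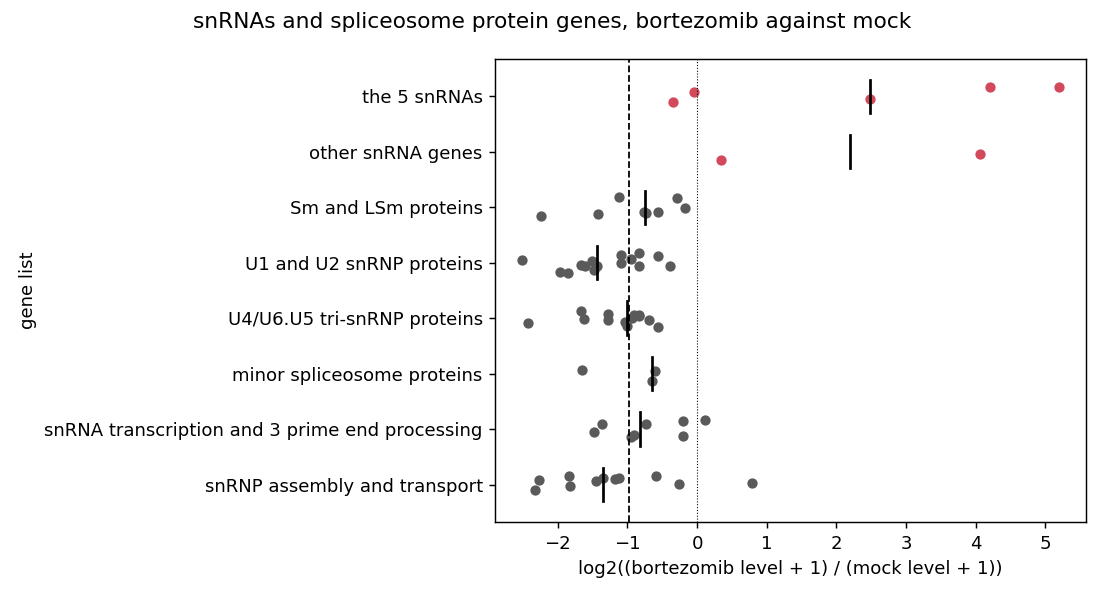
Log2 ratio of bortezomib to mock with a pseudocount of 1 for each measured gene (points) and the median (bar) of the 5 snRNAs, the other snRNA genes and 6 lists of spliceosome proteins, with the all-gene median of -0.98 dashed. The list medians of the proteins lie between -1.44 and -0.65, and RNU12, RNU4-2 and RNVU1-7 lie at 2.48 or more.

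The genes whose 4 log2 ratios to mock were most like each snRNA were named by the root mean square difference, over the 1480 genes that reach a level of 5 anywhere. RNU4-2 was nearest to its copy RNU4-1 (0.11), then to SNORD17 (0.23), a small nucleolar RNA, RNA45SN3 (0.23), a ribosomal RNA precursor gene, SNORD97 (0.24) and RNA45SN2 (0.29). How reads that fit both RNU4-2 and RNU4-1 were counted is not stated, and the part of this in their likeness was not tested. RNU12 was nearest to RNA45SN2 (0.45), RNU4-2 (0.61), RNA45SN3 (0.62), SNORD17 (0.64) and SNORD3D (0.70), a U3 gene. RNVU1-7 was nearest to LINC01002 (0.29), SNORA63 (0.31), SCARNA2 (0.41), SNORD10 (0.44) and SNORA38 (0.45). The genes nearest to RNVU1-6 were protein-coding: GPAA1 (0.12), MRPS34 (0.14), EMC6 (0.14), CKB (0.18) and COX8A (0.18). So were those of RNU6ATAC, PSMG3 at 0.40 and PPP1R35, EXOC8, RANGRF and HPS6 at 0.41 to 0.42. Most genes are protein-coding, 3903 of the 4189 compared for bortezomib against mock, so nothing is read from that kind of neighbour. The patterns of RNVU1-6 and RNU6ATAC rest on 14 to 23 and 1 to 5 reads per library. That of RNU12 rests on 4, 10, 4 and 4 reads outside the bortezomib library. Every gene named as nearest to RNU12, RNU4-2 or RNVU1-7 had a log2 ratio of 2.24 or more with bortezomib. The high bortezomib ratios of these snRNAs were known when they were chosen, so nothing is read from that likeness. In each case the likeness is over 4 ratios that share the mock library.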

How the data were processed

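Total RNA of 5 libraries, 1 per condition, was sequenced with paired reads of 150 bp, per the labels. The submitters' processing notes name Partek and hg38. The sources used here do not give aligner, annotation, strand, filter or normalization. Each value in the deposited table is a gene's normalized signal in 1 library (headed LSMean), and 7 columns that repeat a library were not used. Each listed gene has a summed level of at least 5.04, so genes low in all libraries are missing.

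Level times length was a whole multiple of 1 value per library for low small nucleolar and Cajal body RNAs: within 0.05 for 19 of 22 to 30 of 30 genes. That value, 1 read, was 53.8 for bortezomib and 58.5 to 59.4 for the other libraries; whether levels are RPKM is not stated. Lengths of RNU12 and RNU6ATAC that gave whole reads were 149 and 125 bases, 1 below RefSeq. Reads without molecular identifiers are not independent molecules.

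Ratios have exact Clopper-Pearson intervals, and single counts exact Poisson ones, at 95%. Genes were compared on log2(level + 1) where 1 or both libraries reached a level of 1, and counted at 2-fold. The authors' p-values were not used. Members, lists and rules were chosen with earlier results of these data known. Genes named are the 5 snRNAs, the 5 genes most like each snRNA, and genes over an snRNA. Up to 4 genes per list are also named, those with the highest mean level among genes past 2-fold. RNU4-1, RNVU1-14, RN7SK, RN7SL1, RN7SL2, RMRP, RPPH1, POLDIP3, PHAX, INTS1, INTS5 and INTS11 were added with their values known. Of the list of 50 other snRNA genes 2 were measured. VIM, at a level of 92.1 in mock, and 7 other mesenchymal genes of the line were listed, and the epithelial KRT8, KRT18 and KRT19 had 2.02, 35.5 and 12.1. EPCAM, CDH1, ESR1 and the blood genes PTPRC and CD79A were not among the 4202 listed genes. Sequences and neighbours came from GENCODE 29; the promoter table held none of the 5 genes. Alternatives were the pseudocount, the scaling and the level minimum. The read recovery and the 2-fold count were tested on simulated data. The work ran on Python 3.11.15 with scipy 1.17.1, pandas 2.3.3, numpy 2.4.6 and, for figures, matplotlib 3.10.9.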

Additional observations from a re-analysis of the deposited data

How the results depend on the processing

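Of 180 ratios of single snRNAs under the alternatives, 156 stayed within their counting interval and 24 moved out of it, and no ratio past 2-fold changed sign. The intervals of genes with few reads are wide and hard to leave. For bortezomib against mock RNVU1-6 went from -0.04 to 0.79 and RNU6ATAC from -0.34 to 0.27 with median-of-ratios scaling, and both stayed within. For such genes staying within is no sign of a stable value. Of 233 medians, counts and departures 173 stayed within the set limits and 60 did not. The cause was not tested. Depth limits RNU6ATAC, RNU12 outside the bortezomib library and RNVU1-6. No paired analysis was possible because each condition has 1 library.

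Counts of the 5 snRNAs past 2-fold changed where few reads decide. With a pseudocount of 0.1 there was 1 higher and 1 lower for CGI-1746 against mock and for CGI-1746 against LU-102, in place of 0, and 1 lower for the combination against CGI-1746. With a pseudocount of 5 the latter had 0 higher. Division by the summed levels gave 1 lower for CGI-1746 against mock and for the combination against CGI-1746, and 1 higher for CGI-1746 against LU-102.

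The median log2 ratio of the 5 snRNAs for bortezomib against mock was 2.48, and 3.44 with median-of-ratios scaling and 2.03 after division by the summed levels. For LU-102 against bortezomib these 2 scalings gave -2.90 and -1.86, and for the combination against bortezomib -3.19 and -2.00. Division by the sums also moved the median to -0.23 for LU-102 against mock, -0.42 for the combination against CGI-1746 and 0.36 for CGI-1746 against LU-102.

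The number of all genes past 2-fold moved most. A pseudocount of 0.1 gave 16 for CGI-1746, 6 for LU-102 and 18 for the combination, each against mock, 14 for the combination against CGI-1746, 12 against LU-102, 13 for CGI-1746 against LU-102 and 2971 for LU-102 against bortezomib. A pseudocount of 5 gave 1, 0, 3, 1, 2, 0 and 481 in the same order, 525 for bortezomib against mock and 548 for the combination against bortezomib. Median-of-ratios scaling gave 935 for bortezomib against mock, 840 for LU-102 and 801 for the combination against bortezomib, and 2 for the combination against CGI-1746. In LU-102 against bortezomib it left 657 genes higher and 183 lower, and in the combination against bortezomib 609 and 192. Division by the sums gave 10 for CGI-1746 against LU-102. A level of at least 5 gave 1 for LU-102 against mock, 1016 for bortezomib against mock, 2 for the combination against CGI-1746, 0 for CGI-1746 against LU-102, and 947 and 1061 for LU-102 and the combination against bortezomib.

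List medians of bortezomib against mock moved in all 7 lists. With median-of-ratios scaling they were 3.0 for the other snRNA genes, -0.18 for Sm and LSm proteins, -0.96 for U1 and U2 proteins, -0.55 for U4/U6.U5 proteins, -0.28 for minor spliceosome proteins, -0.28 for snRNA transcription and -0.77 for snRNP assembly. With a pseudocount of 5 they were 2.07, -0.35, -0.53, -0.42, -0.20, -0.30 and -0.65 in the same order. The other snRNA genes had 0.18 for LU-102 against mock with that pseudocount.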
